A study of Rattus norvegicus with 14 samples.

Results

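Potassium channel genes were taken as all genes of the deposited table whose symbol starts with Kcn, the prefix given to pore-forming and auxiliary subunits of potassium channels. There were 88 such genes among 16472 genes. Expression is in FPKM (fragments scaled to transcript length and to the fragment total of the library), added up over the transcripts of a gene. The 71 genes that reached 1 FPKM in 2 or more of the 14 libraries are described. Of the other 17, 2 reached 1 FPKM in 1 library and 1, Kcna10, was listed at 0 in every library. By their second-highest library, the genes just inside the limit were Kcnk10 (1.26 FPKM), Kcna7 (1.50 FPKM) and Kcnh7 (1.54 FPKM). Just outside it were Kcnt2 (0.935 FPKM), Kcne4 (0.823 FPKM) and Kcnrg (0.791 FPKM).

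The libraries came from untreated Sprague-Dawley rats aged 6 to 8 weeks and kept on a cycle of 14 h light and 10 h dark, with time given as zeitgeber time (ZT, hours after lights on). Pineal gland and retina were each sampled 3 times by day (ZT1, ZT7, ZT13) and 3 times by night (ZT15, ZT19, ZT23), with 1 library per tissue and time from a pool of 10 rats. The mixed tissue libraries, at ZT7 and ZT19, each combined equal amounts of RNA from 15 tissues of 3 rats, with 7 parts of the central nervous system and eye among them (cortex, cerebellum, midbrain, hypothalamus, hindbrain, spinal cord and retina). The study asked which transcripts follow a daily rhythm and which are enriched in the pineal gland. Without a second library at any time, the libraries of a tissue over the day served as its replicates, so their spread holds time of day as well as the difference between pools.

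Potassium channels let potassium ions leave or enter the cell down their gradient, and so set the resting potential and end action potentials. Voltage-gated (Kv) alpha subunits assemble in tetramers, alone or with silent Kv subunits that form no channel by themselves, and auxiliary subunits alter their gating and transport. Inward rectifiers (Kir) and the 2-pore channels act mainly near rest, and a further group opens with intracellular calcium or sodium. In rods and cones, Kv2 channels of the inner segment carry an outward current that counters the dark current, and in pinealocytes potassium channels shape the response of the membrane to the nightly release of noradrenaline.

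All libraries had marker levels that fit their label. The summed FPKM of 7 pineal markers was 4457 to 5185 in pineal libraries and 390 to 462 in retina libraries, and that of 7 photoreceptor markers was 494 to 1397 in pineal libraries and 15154 to 20347 in retina libraries. In the retina the 5 lens markers in the table (Crygb, Crygc, Crygd, Mip and Lim2) summed to 507 and 1287 FPKM at ZT1 and ZT19 and to 75.9 to 215 at the other times. In the pineal gland the choroid plexus markers Ttr, Folr1 and Kl summed to 3591 FPKM at ZT15 and to 669 to 1158 at the other times. Depth is unknown from FPKM. By a rough estimate, a single fragment on a 1-kb transcript was worth 0.0216 (retina ZT23) to 0.0527 FPKM (pineal ZT19), so values near or under 0.1 FPKM rest on few fragments. In whole tissue, fewer cells of a type and less RNA per cell cannot be told apart.

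Fewer potassium channel genes reached a mean of 1 FPKM in the pineal gland than in the retina or the mixed tissue. Of all 16472 genes, 8852 to 9336 reached 1 FPKM in each pineal library and 9380 to 9593 in each retina library. The mixed libraries, pools of 15 tissues, had 11399 and 11225 such genes. A mean of at least 1 FPKM was reached by 29 of the 88 genes in the pineal gland, 53 in the retina and 68 in mixed tissue, yet the summed level was 541 ± 46.2 FPKM in the pineal gland, 609 ± 93.8 in the retina (SD, n = 6 each) and 465 ± 45.1 in mixed tissue (SD, n = 2). Kcnh6, an ether-à-go-go related (ERG) voltage-gated subunit, was highest in the pineal gland at 113 ± 16.3 FPKM, which was 20.9% of the summed mean. It was followed by the inward rectifier gene Kcnj14 (101 ± 27.5 FPKM), by Kcnab2, a cytoplasmic beta subunit (93.8 ± 39.1 FPKM), by the single-span auxiliary subunit gene Kcne2 (51.0 ± 16.5 FPKM) and by Kcnd2, an A-type Kv4 subunit (30.9 ± 11.5 FPKM). Among the most abundant in the retina were Kcnj14 (106 ± 19.1 FPKM) and the silent subunit gene Kcnv2 (83.1 ± 40.8 FPKM). Only 20 of the 88 genes reached 1 FPKM in all 14 libraries, and 15 reached it in both mixed libraries alone.

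**Figure D1:**
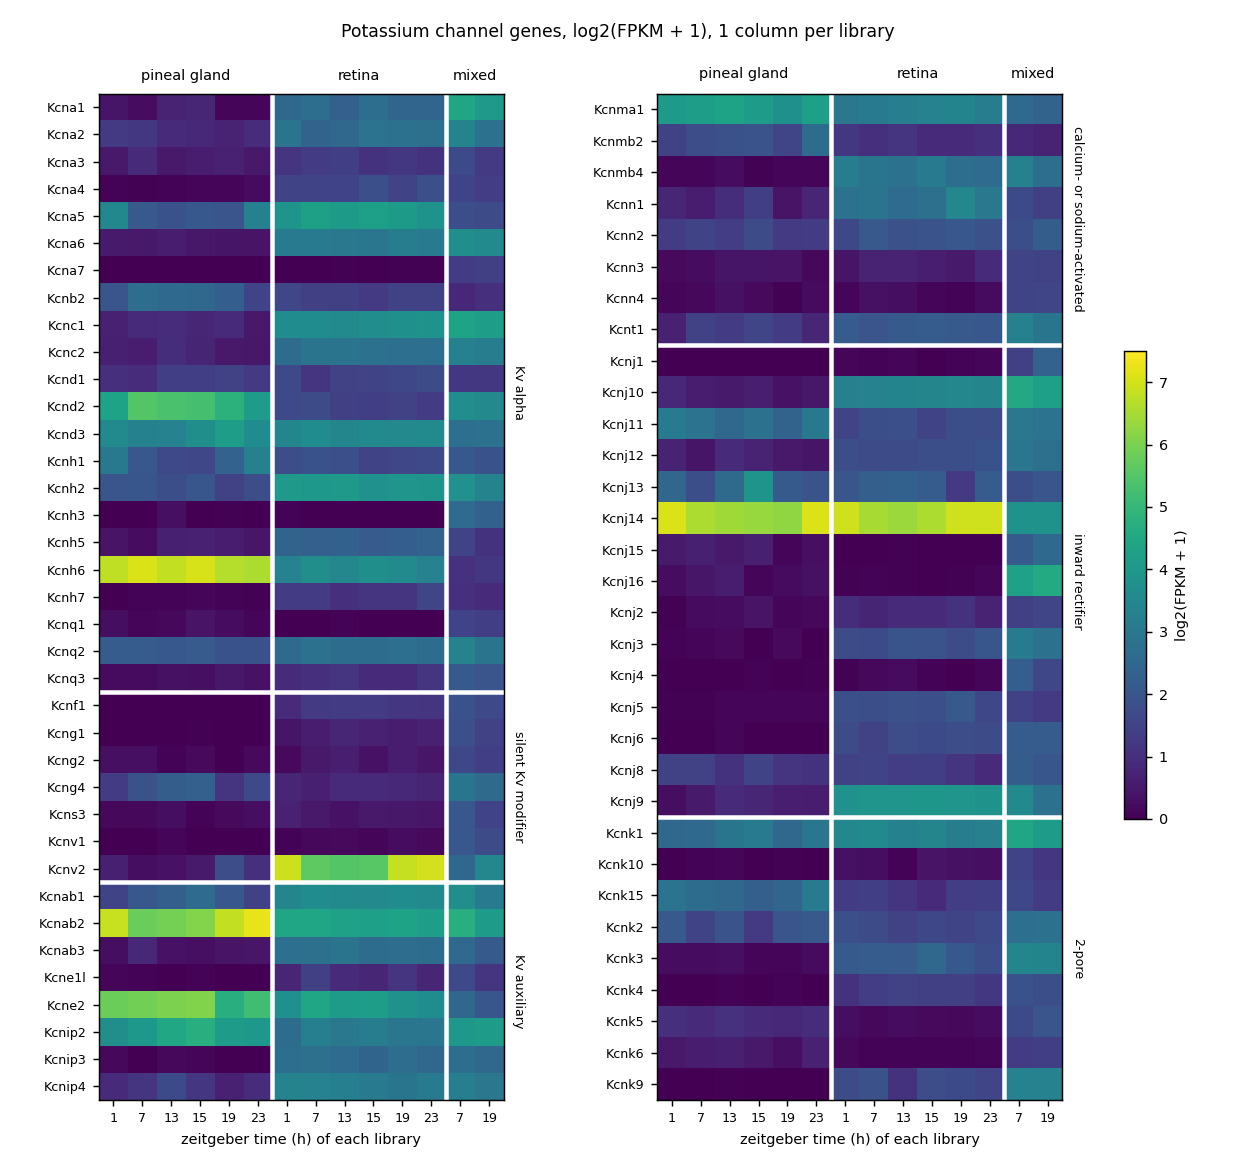
Level of 69 of the 71 described genes in each library as log2(FPKM + 1), colour from dark (0) to yellow, with 1 row per gene, grouped by channel family, and 1 column per library ordered by tissue and zeitgeber time in hours. Kcnh6, Kcnj14 and Kcnab2 are the brightest rows of the pineal gland, and Kcnj14 and Kcnv2 those of the retina.

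Promoter sequences are shown for 4 of the genes that lead these lists because their tissue patterns differ: Kcnh6 and Kcnab2 lead in the pineal gland, Kcnj14 is among the most abundant in both tissues, and Kcnv2 in the retina alone. They are the 250 bases before the annotated start, 5′ to 3′ on the gene's strand, from RefSeq annotation of the GRCr8 assembly, which held windows for 59 of the 88 genes (64 windows). Capitals mark TAATC, the core bound by the photoreceptor and pineal factor CRX, or TGACG, the core of the cAMP response element, each searched on both strands (GATTA and CGTCA on the reverse).
Kcnh6 (GRCr8 chr10:91449401-91449650, plus strand): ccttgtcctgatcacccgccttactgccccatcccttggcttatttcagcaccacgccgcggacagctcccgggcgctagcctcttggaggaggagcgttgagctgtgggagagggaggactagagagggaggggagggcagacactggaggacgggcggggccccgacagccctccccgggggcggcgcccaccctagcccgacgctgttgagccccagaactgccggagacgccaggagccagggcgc
Kcnab2 (GRCr8 chr5:168270761-168271010, minus strand): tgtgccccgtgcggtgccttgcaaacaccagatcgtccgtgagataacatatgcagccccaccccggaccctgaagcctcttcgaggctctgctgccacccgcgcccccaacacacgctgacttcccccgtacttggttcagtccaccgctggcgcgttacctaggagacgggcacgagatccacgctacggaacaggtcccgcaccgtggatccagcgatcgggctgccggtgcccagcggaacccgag
Kcnj14 (GRCr8 chr1:105437259-105437508, minus strand): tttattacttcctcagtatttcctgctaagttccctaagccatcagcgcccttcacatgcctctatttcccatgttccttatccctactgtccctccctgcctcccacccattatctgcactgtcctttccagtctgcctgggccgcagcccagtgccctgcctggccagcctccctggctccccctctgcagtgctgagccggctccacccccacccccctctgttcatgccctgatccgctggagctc
Kcnv2 (GRCr8 chr1:234412924-234413173, plus strand): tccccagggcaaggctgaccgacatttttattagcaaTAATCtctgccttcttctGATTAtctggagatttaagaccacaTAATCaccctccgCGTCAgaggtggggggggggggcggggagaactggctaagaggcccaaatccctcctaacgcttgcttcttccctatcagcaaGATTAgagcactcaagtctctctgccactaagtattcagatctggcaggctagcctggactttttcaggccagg

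The Kcnv2 window held 4 matches to TAATC, each within 213 bases of the start, and 1 to TGACG, and none of its matches overlap. At least 4 matches to TAATC were found in 21 of the 33469 RefSeq windows of this length (0.0627%). Of the 64 windows of potassium channel genes it was the only one. The minimum of 4 is the count of the Kcnv2 window itself, so these shares describe that window and test nothing. It was 51.6% G and C, against 59.6% to 69.6% in the other windows shown. A single match or more to TAATC was in 14.1% of the potassium channel windows and 20.5% of all windows, and to TGACG in 18.8% and 18.2%. The full cAMP response element TGACGTCA was in 0 of the 64 windows and 1.59% of all windows, and the E-box CACGTG in 3.13% and 5.59%. The windows of Kcnh6, Kcnab2 and Kcnj14 held none of these 4 motifs, nor did that of Kcnd2. These are matches of letters and not measured binding.

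Between the pineal gland and the retina, most potassium channel genes differed, and more were lower in the pineal gland than higher. Of the 71 genes, 17 were higher and 44 were lower in the pineal gland (limma on log2(FPKM + 1), adjusted p under 0.05 over 11656 genes). That is 85.9% of them, where 68.9% of all genes tested were called. The higher calls made up 23.9% of these genes, against 36.9% of all genes, and the lower calls 62.0%, against 32.0%. Their median difference was -0.61 on the log2 scale, against 0.034 for all genes tested. All 6 pineal libraries lay below all 6 retina libraries for 39 of the 71 genes (54.9%, against 24.4% of all genes), and all lay above for 15 (21.1%, against 25.6% of all genes). The calls include 4 higher and 6 lower ones among the 15 genes that reached 1 FPKM in the mixed libraries alone. Of the other 56 genes, 13 were higher and 38 lower in the pineal gland.

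**Figure D2:**
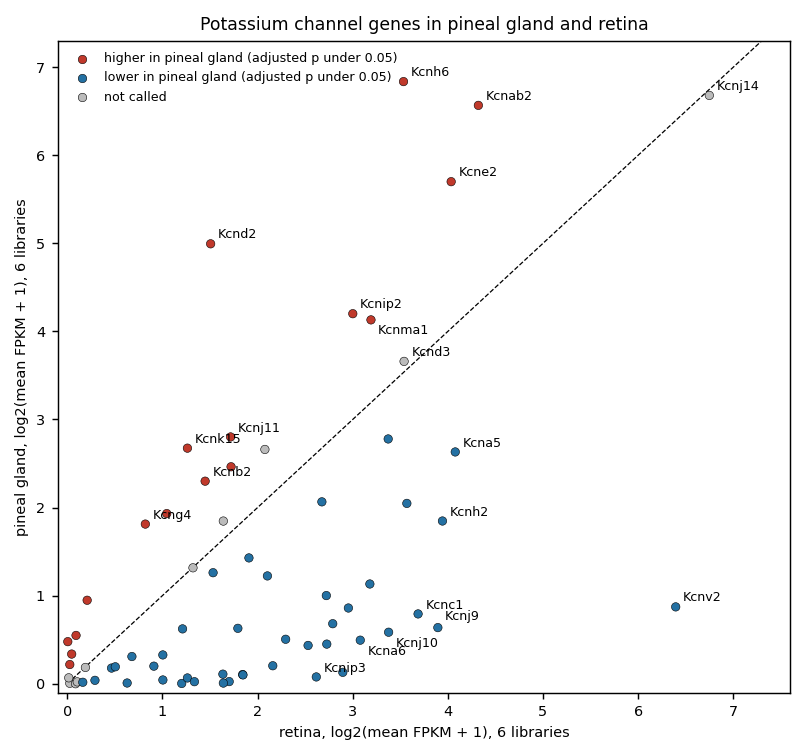
Mean level of 69 of the 71 genes in the pineal gland (vertical) against the retina (horizontal), both as log2 of the mean FPKM + 1 over 6 libraries, with 1 point per gene and a dashed line where both are equal. The 17 genes higher in the pineal gland lie above the line, the 42 lower ones plotted lie below it, and Kcnj14 and Kcnd3 lie near it.

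Voltage-gated alpha subunits were divided, with 5 of 24 higher and 16 lower in the pineal gland, where 36.9% of all genes were higher and 32.0% lower. Kcnh6 (gene ID 116745, rn4 chromosome 10, 95400862 to 95421678) had 110, 133, 112, 132, 99.5 and 93.6 FPKM in pineal libraries from ZT1 to ZT23, against 9.04 to 12.3 FPKM (median 10.5) in retina libraries. The groups were far apart at every time, with a difference of 3.30 (SE 0.10, adjusted p = 3.7e-13). Its relatives were divided. Kcnh2, the cardiac ERG subunit, was lower by 2.11 (2.60 ± 0.50 FPKM in the pineal gland, against 14.4 ± 0.94 in the retina, adjusted p = 7.79e-11). Kcnh7, the remaining ERG gene, was lower by 1.19, at 0.00975 to 0.0734 FPKM in the pineal gland and 1.05 to 1.97 FPKM in the retina. Kcnh5, an EAG subunit, was also lower (0.42 ± 0.17 and 3.91 ± 0.29 FPKM), and its relative Kcnh1 was higher by 0.60 (adjusted p = 0.0419). Kcnh6 was thus the only ERG gene that was higher in the pineal gland than in the retina.

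Kcnd2 (gene ID 65180, rn4 chromosome 4, 47541787 to 48047920), which encodes a subunit of A-type channels that open below threshold and inactivate fast, had 19.4, 44.4, 39.5, 38.2, 27.1 and 16.6 FPKM in pineal libraries from ZT1 to ZT23, against 1.52 to 2.27 FPKM in retina libraries. Even the lowest pineal library was above every retina library, and the difference was 3.41 (SE 0.20, adjusted p = 8.38e-10), the largest upward among these genes. Kcnd3, of the same Kv4 family, was not called, at 11.6 ± 3.13 FPKM in the pineal gland and 10.6 ± 0.65 FPKM in the retina, with a difference of 0.088 (95% interval -0.18 to 0.36). Kcnd1 was lower by 0.27 (adjusted p = 0.0412).

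The widest gap was that of Kcnv2 (gene ID 294065, rn4 chromosome 1, 230834883 to 230849285), a silent subunit of rods and cones that assembles with Kv2 and whose loss causes a cone dystrophy in humans. It had 0.590, 0.214, 0.296, 0.459, 2.43 and 0.997 FPKM in pineal libraries from ZT1 to ZT23. In retina libraries of the same times it had 120, 48.9, 43.7, 45.5, 115 and 126 FPKM. The lowest retina library was far above the highest pineal one. The difference was -5.46 (SE 0.33, adjusted p = 1.05e-09), the largest of the 71 genes in either direction. Kcnb2, a Kv2 alpha subunit, was higher in the pineal gland by 0.80 (3.92 ± 1.35 FPKM in the pineal gland, against 1.73 ± 0.20 in the retina, adjusted p = 0.000468).

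Fast delayed rectifiers of the Kv3 family were lower in the pineal gland. Kcnc1 had 0.423 to 0.923 FPKM in pineal libraries, against 10.8 to 13.2 FPKM in retina libraries, a difference of -2.90 (SE 0.09, adjusted p = 2.01e-13). Kcnc2 was lower by 2.12 (adjusted p = 1.37e-11). Among the Kv1 genes, Kcna6 had 0.317 to 0.500 FPKM in the pineal gland and 6.71 to 8.06 FPKM in the retina, a difference of -2.58 (SE 0.07). Kcna1, Kcna2, Kcna3, Kcna4 and Kcna5 were lower as well, by 0.59 to 2.11, and Kcna7 was under 0.04 FPKM in both tissues. The groups of the other 6 Kv1 genes did not overlap.

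Among the other silent subunits, which alter the gating of Kv2 channels, Kcng4 was higher in the pineal gland by 0.93 (1.24 to 3.90 FPKM in the pineal gland and 0.582 to 0.899 FPKM in the retina, adjusted p = 0.000167). Kcnf1, Kcng1, Kcng2, Kcns3 and Kcnv1 were lower. Of these only Kcnf1 exceeded 1 FPKM in the retina, at 0.911 to 1.53 FPKM, and it was listed at 0 in 5 of the 6 pineal libraries.

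All 8 described auxiliary subunit genes differed, 3 of them upward, where 68.9% of all genes were called and 36.9% were higher. Kcnab2 (gene ID 29738, rn4 chromosome 5, 169624099 to 169710725), a beta subunit of Kv1 channels that is related to aldo-keto reductases, had 117, 54.4, 60.5, 67.3, 111 and 153 FPKM in pineal libraries from ZT1 to ZT23, against 17.4 to 20.8 FPKM in retina libraries. The difference was 2.14 (SE 0.22, adjusted p = 3.99e-07), and the groups did not overlap. The other beta subunit genes went down: Kcnab1 by 1.57 (adjusted p = 8.29e-07) and Kcnab3 by 2.29 (adjusted p = 2.5e-11), so that Kcnab2 was the only abundant beta subunit gene of the pineal gland.

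Kcne2 (gene ID 171138, rn4 chromosome 11, 32283169 to 32290828), whose product joins ERG and other Kv channels, had 54.9, 58.3, 64.4, 66.8, 25.8 and 35.7 FPKM in pineal libraries from ZT1 to ZT23, against 11.6 to 20.9 FPKM in retina libraries. All pineal libraries were above all retina libraries, with a difference of 1.62 (SE 0.22, adjusted p = 9.97e-06). The gene is also known from choroid plexus, whose markers summed to 669 to 3591 FPKM in pineal libraries and 48.9 to 88.9 FPKM in retina libraries. Kcne2 was 66.8 FPKM in the pineal library with the highest sum, at ZT15, and 35.7 FPKM in the one with the lowest, at ZT23, and the part of this tissue in the difference was not tested. Kcne1l was lower in the pineal gland by 0.94.

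The KChIP genes, whose products bind the Kv4 subunits and promote their surface transport, were split between the tissues. Kcnip2 had 12.1 to 24.9 FPKM in the pineal gland, against 5.29 to 8.48 FPKM in the retina, a difference of 1.17 (SE 0.15, adjusted p = 4.23e-06). Its 3 transcripts were used unequally: 1 of them had a mean of 17.1 FPKM in the pineal gland and 4.35 FPKM in the retina, another 0.25 and 1.39 FPKM, and the last was listed at 0 in every pineal library and had a mean of 1.27 FPKM in the retina. The division of fragments among overlapping transcripts is an estimate. Kcnip3 had at most 0.125 FPKM in pineal libraries, against 4.39 to 5.76 FPKM in retina libraries, a difference of -2.54 (SE 0.07), and Kcnip4 was lower by 2.07 (adjusted p = 3.5e-09). In mean FPKM, Kcnip2 was thus the highest KChIP gene of the pineal gland (17.4, against 1.19 for Kcnip4 and 0.055 for Kcnip3), while the retina had 7.01 for Kcnip2, 8.07 for Kcnip4 and 5.14 for Kcnip3.

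Outside the symbol rule, Dpp6 and Dpp10, which encode single-span proteins that speed the gating of Kv4 channels, were both low in the pineal gland. Dpp6 had 0.186 to 0.523 FPKM in pineal libraries, against 13.8 to 18.2 FPKM in retina libraries, a difference of -3.63 (adjusted p = 2.28e-14). Dpp10 was lower by 1.56 (adjusted p = 1.47e-10). Kcnd2 and Kcnip2 were therefore high where both of these partner genes were low.

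Among channels opened by calcium, Kcnma1, which encodes the large-conductance (BK) pore, had 12.6 to 19.5 FPKM in the pineal gland, against 6.81 to 9.40 FPKM in the retina, a difference of 0.93 (SE 0.10, adjusted p = 7.57e-07). Its beta subunits, which set calcium sensitivity and inactivation, were exchanged. Kcnmb4 had 0.0320 to 0.190 FPKM in the pineal gland and 5.10 to 8.02 FPKM in the retina, a difference of -2.75 (adjusted p = 6.44e-12). Kcnmb2 had 1.78 to 5.28 FPKM in the pineal gland and 0.873 to 1.33 FPKM in the retina, a difference of 0.84 (adjusted p = 0.000212). Lrrc38, which encodes a gamma subunit of BK channels and is no Kcn gene, had 35.2, 31.1, 27.7, 30.3, 32.9 and 50.1 FPKM in pineal libraries from ZT1 to ZT23, against 0.586 to 1.01 FPKM in retina libraries and 1.02 and 1.15 FPKM in the mixed libraries. Each pineal library was far above every library of the other groups, and the difference from the retina was 4.21 (SE 0.12, adjusted p = 1.29e-13). The small-conductance (SK) gene Kcnn1 was lower in the pineal gland by 2.10, Kcnn2 by 0.48 and Kcnn3 by 0.37, as was Kcnt1, a sodium-activated channel, by 0.91.

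**Figure D3:**
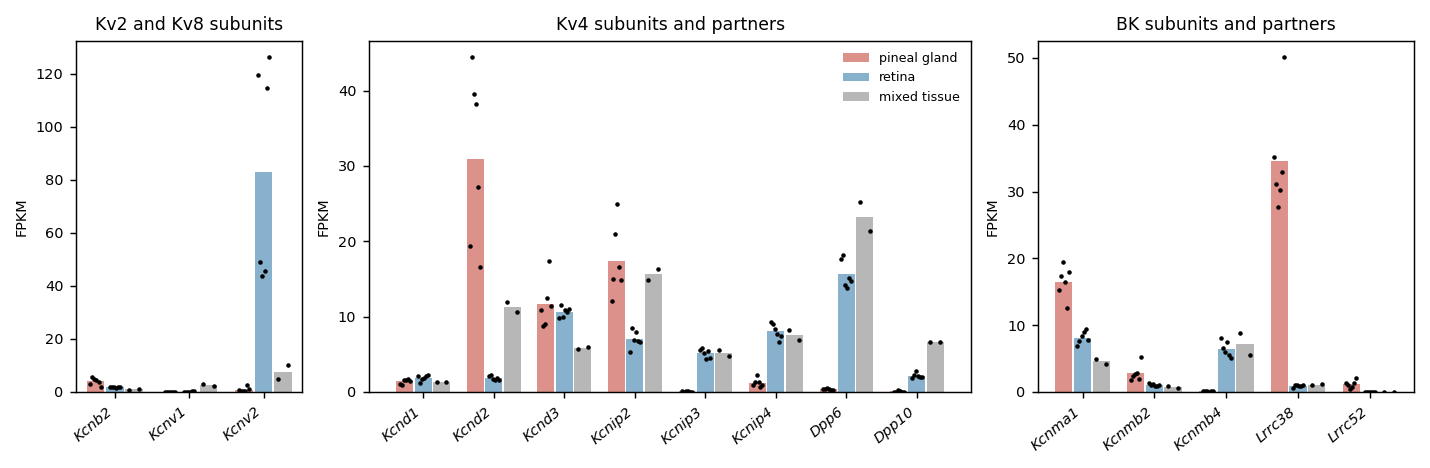
FPKM of subunits and partners of 3 channel complexes in the pineal gland, the retina and mixed tissue, with bars for the mean (6, 6 and 2 libraries) and 1 point per library, each panel on its own linear axis from 0. Kcnv2 is highest in the retina. Kcnd2 and Lrrc38 are highest in the pineal gland, where Dpp6, Dpp10, Kcnip3 and Kcnmb4 are near 0.

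Of the 15 inward rectifier genes, 3 were higher and 7 lower in the pineal gland, where 36.9% of all genes were higher and 32.0% lower. Kcnj14 (gene ID 276720, rn4 chromosome 1, 96293796 to 96297747), an inward rectifier of the Kir2 group, was the highest rectifier gene in both tissues, with 135, 94.8, 84.9, 80.9, 76.0 and 137 FPKM in pineal libraries from ZT1 to ZT23 and 124, 91.4, 82.2, 95.0, 124 and 122 FPKM in retina libraries. The groups overlapped, with a difference of -0.091 (95% interval -0.44 to 0.26, adjusted p = 0.645). Under quantile normalization it was -0.48 and passed (adjusted p = 0.00880).

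The G protein-gated rectifiers, which open on signals such as acetylcholine and dopamine, were low in the pineal gland. Kcnj9 had 0.211 to 0.843 FPKM there, against 12.7 to 14.6 FPKM in the retina, a difference of -3.27 (SE 0.12, adjusted p = 2.94e-12). Kcnj3, Kcnj5 and Kcnj6 had means of 0.0170 to 0.0751 FPKM in the pineal gland and of 2.25 to 2.60 FPKM in the retina, with differences of -1.67 to -1.74. Kcnj10, the glial rectifier that clears potassium in Müller cells, had 0.277 to 0.805 FPKM in the pineal gland and 8.55 to 10.0 FPKM in the retina (difference -2.80, adjusted p = 3.48e-13). Together with Rlbp1 and Slc1a3, the other Müller glia markers in the table, it summed to 14.5 to 21.4 FPKM in pineal libraries and 131 to 151 FPKM in retina libraries.

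The genes of the ATP-sensitive channel were mostly higher in the pineal gland. Kcnj11, its neuronal and endocrine pore, had 4.20 to 7.51 FPKM in the pineal gland, against 1.88 to 2.57 FPKM in the retina, a difference of 1.07 (adjusted p = 1.24e-06). Its regulatory sulfonylurea receptor genes moved the same way, Abcc8 by 0.98 (3.73 ± 1.03 FPKM in the pineal gland, against 1.36 ± 0.20 in the retina, adjusted p = 9.35e-06) and Abcc9 by 1.04 (4.47 ± 0.41 and 1.66 ± 0.20 FPKM, adjusted p = 7.18e-09). Abcc9 is also a marker of pericytes and smooth muscle. The 4 markers of these cells in the table (Rgs5, Pdgfrb, Abcc9 and Kcnj8) summed to 13.4 to 18.6 FPKM in pineal libraries and 8.83 to 12.2 FPKM in retina libraries, and their part in the difference was not tested. The vascular pore gene Kcnj8 had 1.14 to 1.89 FPKM in the pineal gland and 0.846 to 1.92 FPKM in the retina and was not called (95% interval of the difference -0.26 to 0.26). Kcnj13, a rectifier known from choroid plexus and pigment epithelium, had 13.8 FPKM in the pineal library at ZT15, where the choroid plexus markers were highest, and 2.49 to 4.99 FPKM in the others, against 1.44 to 4.08 FPKM in the retina (difference 0.42, adjusted p = 0.217). Kcnj1, the kidney rectifier, was listed at 0 in every pineal library.

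The 2-pore leak channels were low in both tissues, and none had a mean above 10 FPKM in either. Kcnk15, a TASK relative that gives no current by itself, had 3.87 to 7.68 FPKM in the pineal gland, against 0.909 to 1.63 FPKM in the retina, a difference of 1.39 (SE 0.14, adjusted p = 2.33e-07). Kcnk5 and Kcnk6 were higher by 0.74 and 0.45. Kcnk6 was low in both, at 0.249 to 0.614 FPKM in the pineal gland and 0.0433 to 0.123 FPKM in the retina. Kcnk1, the highest of this family in both tissues, was lower in the pineal gland (4.74 to 7.48 FPKM in the pineal gland and 8.05 to 11.1 FPKM in the retina, difference -0.61), and the acid-sensitive TASK genes Kcnk3 and Kcnk9 were lower by 1.94 and 1.61. The 10 widest differences in each direction between the tissues kept their sign and their call in each alternative run.

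Of 26 genes listed for their work beside potassium channels (auxiliary and anchoring proteins, sodium pumps and potassium-chloride transporters), 24 were tested. There were 9 higher and 11 lower in the pineal gland than in the retina. Among all genes tested, 36.9% were higher and 32.0% lower. Atp1b1, a beta subunit of the sodium pump, had 7.67 to 22.7 FPKM in the pineal gland and 95.1 to 122 FPKM in the retina (difference -3.07, adjusted p = 4.39e-09), while Atp1b2 was higher by 0.48 (512 ± 61.8 FPKM in the pineal gland, against 367 ± 47.4 in the retina, adjusted p = 0.00182). The cotransporter gene Slc12a7 was lower by 1.01 (2.96 ± 0.83 FPKM in the pineal gland and 6.96 ± 1.42 FPKM in the retina). Amigo1, a partner of Kv2 channels, was not called (6.98 ± 1.14 FPKM in the pineal gland, against 8.08 ± 1.03 in the retina, adjusted p = 0.203).

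Set against mixed tissue, the pineal gland was higher for 10 of the 71 genes and lower for 54, which is 90.1% called, where 64.8% of all genes were. Higher calls made up 19.8% of all genes and lower calls 45.0%. The lower calls hold the 15 genes that reached 1 FPKM in the mixed libraries alone, which entered the test only through the group where they are high. Of the other 56 genes, 10 were higher and 39 lower. The median of all genes lay at -0.25, and that of these genes at -1.36. This split leans on the scaling of the mixed libraries: with quantile normalization 19 were higher and 36 lower, and the median of all genes moved to 0.22. Kcnh6 had 93.6 to 133 FPKM in the pineal gland, against 1.09 and 1.32 FPKM in the mixed libraries at ZT7 and ZT19, a difference of 5.68 (SE 0.15, adjusted p = 1.88e-14), by far the widest of the 10. Kcne2 followed at 3.35 (4.80 and 3.05 FPKM in mixed tissue), then Kcnj14 at 2.79 (13.5 and 13.4 FPKM), Kcnab2 at 2.04 (24.9 and 16.8 FPKM) and Kcnma1 at 1.65 (4.89 and 4.22 FPKM). The widest in the other direction was Kcnj16, which pairs with Kcnj10 in kidney and glia. It had 0.101 to 0.494 FPKM in the pineal gland and 18.4 and 23.1 FPKM in mixed tissue (difference -4.11, adjusted p = 2.21e-14). Kcnj16 is among the 15 genes that entered the test only through the mixed libraries, where they are high. The brain and axon channel genes Kcna1 (-3.81) and Kcnc1 (-3.49), Kcnj10 (-3.80) and the TASK gene Kcnk9 (-3.31) came next. These 10 genes kept both direction and call in each alternative in which they were tested. Kcnj16 was tested in 19 of the 21 alternatives, as it missed the filter whenever a mixed library was left out.

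The retina was higher than mixed tissue for 15 of the 71 genes and lower for 41. Calls made up 78.9% of these genes and 65.0% of all genes, with 18.4% of all genes higher and 46.6% lower. The same 15 genes are among the lower calls, and of the other 56, 15 were higher and 26 lower. With quantile normalization 31 were higher and 25 lower, and with median ratio scaling 19 and 36. The median of all genes was -0.30 as deposited, 0.19 after quantile normalization and -0.025 after ratio scaling. The mixed pools themselves hold retina RNA, and the same 2 pools served both comparisons. Kcnv2 had 43.7 to 126 FPKM in the retina, against 4.83 and 10.1 FPKM in the mixed libraries (difference 3.23, adjusted p = 2.36e-05). Kcnj14 (2.88), Kcnh6 (2.39) and Kcna5 (2.31) were also among the 5 widest. Kcnh6 was therefore above mixed tissue in both tissues, and Kcna5, a Kv1 subunit, had 13.3 to 18.1 FPKM in the retina, against 2.47 and 2.29 FPKM in mixed tissue. Kcnj16 (-4.39), Kcnh3 (-2.46), Kcnj15 (-2.35), Kcnd2 (-2.11) and Kcng4 (-1.92) were the lowest. Of these, Kcnj16, Kcnh3 and Kcnj15 are among the 15 genes that entered the test only through the mixed libraries, where they are high. Without the mixed library at ZT7, 36 of the 56 genes then tested were called.

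Between the mixed pools there was no test, as each time had 1 library. None of the 71 genes differed by 2-fold on the log2(FPKM + 1) scale. Few of all 11656 genes did, with 38 higher and 88 lower at ZT19. The median of log2 ZT19 minus ZT7 was -0.17, against -0.13 for all genes. In FPKM without the added 1, Kcnv2 (10.1 at ZT19 and 4.83 at ZT7) and Kcnj1 (4.12 and 1.66) were over 2-fold apart.

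Over the day, 13 of the 55 potassium channel genes tested followed a rhythm of 24 h in the pineal gland (limma on a cosine and sine of 24 h, adjusted p under 0.05 over 10416 genes). Their share, 23.6%, was near that of all genes, 20.7%. Sizes below are the fitted peak to trough on the log2 scale. The Kv alpha genes among them included Kcnh1, Kcna5, Kcnd2, Kcnb2 and Kcnd3. Also called were the auxiliary genes Kcnab2, Kcnab1 and Kcnip2, the silent subunit genes Kcnv2 and Kcng4, the rectifier gene Kcnj14 and the sodium-activated channel gene Kcnt1. Of the 7 genes of 2-pore channels tested, 0 were called. Peaks fell in 2 parts of the day. Kcnd3, Kcnv2, Kcnab2, Kcnh1, Kcna5 and Kcnj14 peaked between ZT19.4 and ZT1.93. Kcnb2, Kcnd2, Kcng4, Kcnt1, Kcnab1 and Kcnip2 peaked between ZT10.6 and ZT14.3. Of these, Kcng4, Kcnt1, Kcnab1 and Kcnip2 had their highest pineal library at ZT15, and Kcnb2 and Kcnd2 at ZT7. The choroid plexus markers were also highest at ZT15 (3591 FPKM, against 669 to 1158 FPKM), and their part in these rhythms was not tested. Without that library the rhythm test called Kcnab1 but not Kcng4, Kcnip2 or Kcnt1 (adjusted p = 0.0759, 0.0628 and 0.0825).

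**Figure D4:**
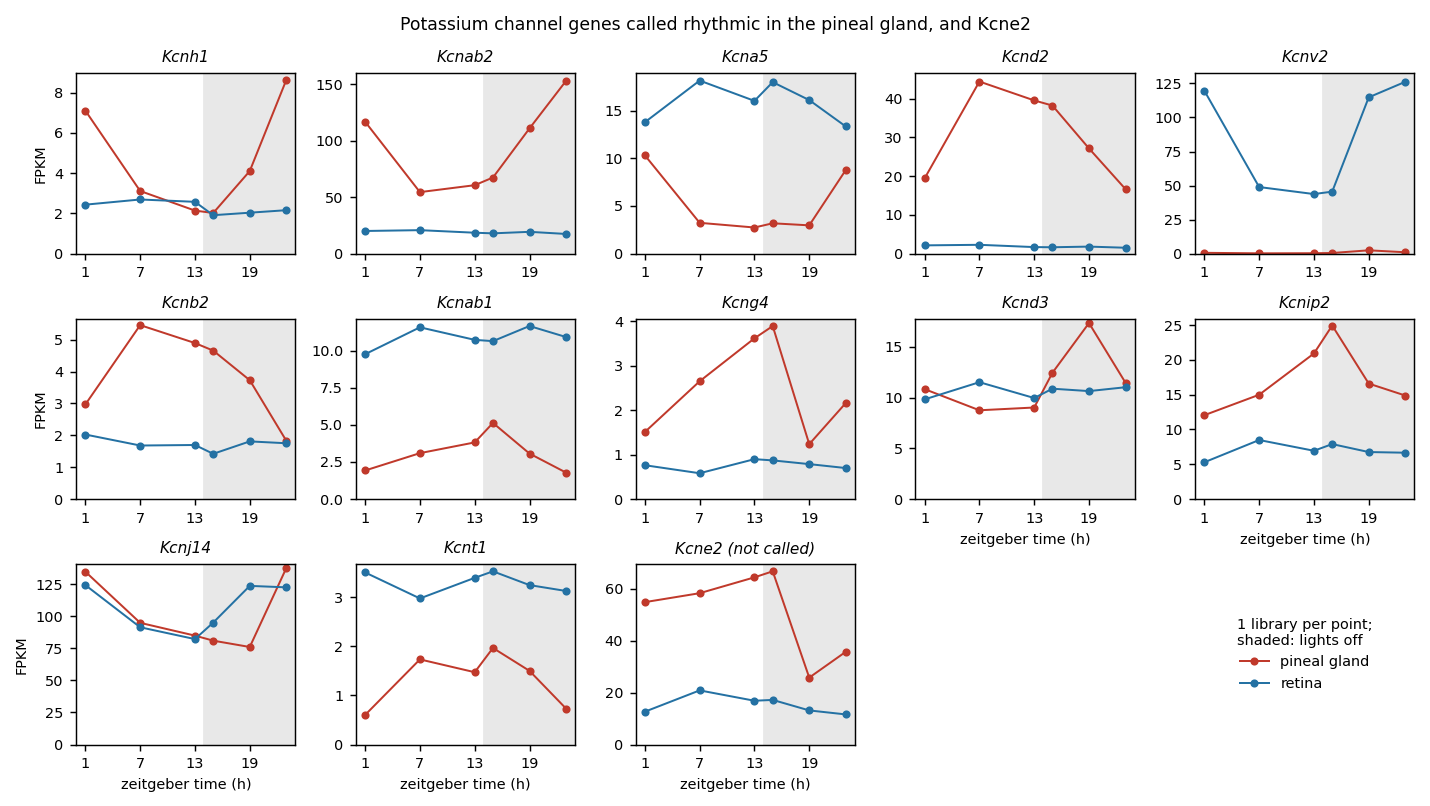
FPKM over zeitgeber time (hours) of 12 of the 13 genes called rhythmic in the pineal gland and of Kcne2, in the pineal gland and the retina, with 1 library per point, a linear axis from 0 in each panel and shading where lights are off. Kcnh1, Kcnab2 and Kcna5 of the pineal gland are high at ZT23 and ZT1, Kcnd2 is low at those times, and the retina courses of these genes are flatter.

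The widest rhythm was that of Kcnh1 (gene ID 65198, rn4 chromosome 13, 108129621 to 108407815), an EAG subunit of brain neurons. It had 7.10, 3.11, 2.14, 2.02, 4.10 and 8.62 FPKM from ZT1 to ZT23, high around the end of the night and lowest at ZT15. The fitted size was 1.65 with a peak at ZT0.16 (adjusted p = 0.000357). Kcnab2, with the values given above, was above 110 FPKM at ZT19, ZT23 and ZT1 and under 68 FPKM at the other times. Its size was 1.53 with a peak at ZT22.1 (adjusted p = 0.000198). Kcna5 (gene ID 25470, rn4 chromosome 4, 162896283 to 162898091), a Kv1 alpha subunit to which beta subunits bind, had 10.3, 3.23, 2.74, 3.18, 2.96 and 8.77 FPKM from ZT1 to ZT23. Only ZT23 and ZT1 were raised, with a size of 1.52 and a peak at ZT0.76 (adjusted p = 0.0108). It was not called without the pineal ZT23 library (adjusted p = 0.0584).

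Kcnd2 was high from ZT7 to ZT15, with 44.4 FPKM at ZT7 and 16.6 FPKM at ZT23 as its highest and lowest libraries. The size was 1.36 and the peak at ZT10.8 (adjusted p = 0.00199). Its relative Kcnd3 had 10.8, 8.74, 9.02, 12.4, 17.3 and 11.5 FPKM from ZT1 to ZT23, with a peak at ZT19.4 and a size of 0.84 (adjusted p = 0.0305). The high value was at ZT19, and without that library the size was 0.55 and the gene was not called (adjusted p = 0.138). Without ZT7 the size was 1.43. The call was also lost without the retina ZT15 (adjusted p = 0.0518) or ZT23 library (0.0513) and with no filter (0.0522). Kcnip2 had 12.1, 15.0, 20.9, 24.9, 16.6 and 14.9 FPKM, with a size of 0.82 and a peak at ZT14.3 (adjusted p = 0.0169). It was not called without ZT1 (adjusted p = 0.0606) or ZT15 (0.0628), nor on its highest transcript alone (0.157).

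Kcnb2 had 2.97, 5.46, 4.90, 4.66, 3.73 and 1.83 FPKM from ZT1 to ZT23, highest at ZT7, with a size of 1.01 and a peak at ZT10.6 (adjusted p = 0.0148). It missed the threshold without ZT23 (adjusted p = 0.0767) and under quantile normalization (0.0551). Kcnv2 had a size of 1.34 with a peak at ZT20.1 (adjusted p = 0.0283), at levels under 2.5 FPKM. Its high library was ZT19, where the photoreceptor markers summed to 920 FPKM, within their range of 494 to 1397 FPKM over the pineal libraries. Kcnv2 was not called without ZT13 (adjusted p = 0.0689) or ZT23 (0.0542) or with no filter (0.0581), and its size was 2.33 without ZT7, 0.76 without ZT19 and 2.85 with a pseudocount of 0.1 FPKM.

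Kcnab1 had 1.92, 3.09, 3.81, 5.12, 3.06 and 1.78 FPKM from ZT1 to ZT23, highest at ZT15, with a size of 0.97 and a peak at ZT13.1 (adjusted p = 0.00565). Kcnj14 was highest at ZT1 and ZT23, with a size of 0.77 and a peak at ZT1.93 (adjusted p = 0.0236), and missed without either library (adjusted p = 0.0851 and 0.0833). Kcng4 (size 0.91, adjusted p = 0.0489) and Kcnt1 (size 0.75, adjusted p = 0.0361) were near the threshold, and lost the call in 15 and 13 of the 19 alternatives, among them those without any 1 retina library. Fitted on the pineal libraries alone, Kcna5, Kcnab1, Kcnb2, Kcnd3, Kcng4, Kcnj14 and Kcnt1 were not called (adjusted p = 0.0559 for Kcnab1 to 0.168 for Kcng4), and Kcnv2 was not tested. The genes Kcnh1, Kcnab2 and Kcnd2 stayed called in each of the 19 alternatives run for them.

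In the retina 2 of the 55 genes were called rhythmic, Kcnv2 among them. That is 3.64%, where 1.02% of all genes were called. Kcnv2 had 120, 48.9, 43.7, 45.5, 115 and 126 FPKM from ZT1 to ZT23. It was high at ZT19, ZT23 and ZT1 and low at ZT7, ZT13 and ZT15, with no overlap between these times. The fitted size was 1.87 (peak at ZT22.7, adjusted p = 0.0251), wider than the observed log2 range of 1.51. Kcnj14 had the same high and low times, at 124, 124 and 122 FPKM, against 82.2 to 95.0 FPKM, but was not called (0.66, adjusted p = 0.136). It was called with median ratio scaling (0.89, adjusted p = 0.0416), with each tissue fitted alone (adjusted p = 0.0222) and without the pineal ZT19 library (adjusted p = 0.0296).

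**Figure D5:**
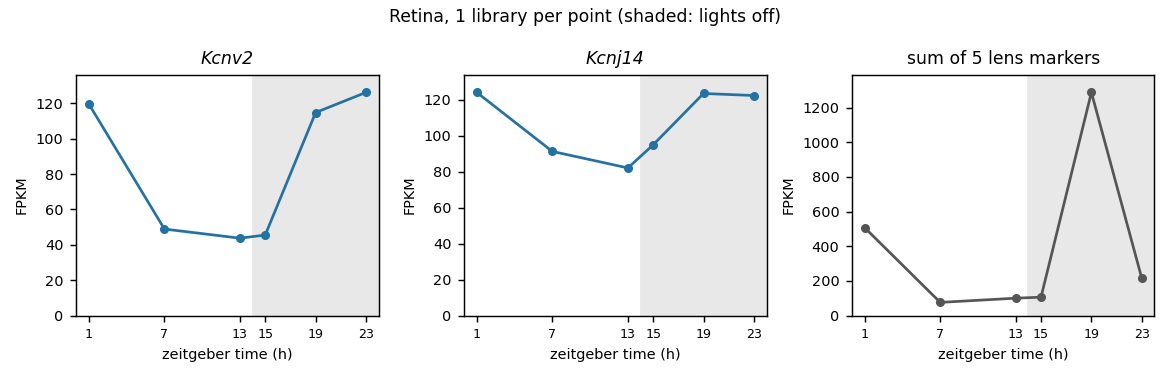
FPKM in the retina over zeitgeber time (hours) of Kcnv2 and Kcnj14 and of the summed 5 lens markers, with 1 library per point, linear axes from 0 and shading where lights are off. Both channel genes and the lens markers are each higher at ZT19, ZT23 and ZT1 than at the other 3 times, the lens markers most at ZT19.

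The lens markers moved with these genes, at 1287, 215 and 507 FPKM at ZT19, ZT23 and ZT1 and 75.9 to 106 FPKM at the other times, and their part in the rhythms was not tested. Kcnv2 was 126 FPKM at ZT23, where the lens sum was 215 FPKM, and 115 FPKM at ZT19, where it was 1287 FPKM. Without the ZT1 and ZT19 libraries the fitted size of Kcnv2 was 1.71, and it was not called (adjusted p = 0.337). The call on Kcnv2 was lost without any 1 retina library (adjusted p = 0.0677 to 0.114).

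The rhythms of 4 genes differed between the tissues by the interaction test, which is 7.27% of the 55 genes, where 4.95% of all genes were called. They were Kcna5 (1.85, adjusted p = 0.0493), Kcnh1 (1.73, adjusted p = 0.00628), Kcnab2 (1.63, adjusted p = 0.00413) and Kcnd2 (1.31, adjusted p = 0.0308), sizes being the peak to trough of the difference between the fitted curves. In the retina these genes had fitted sizes of 0.36, 0.34, 0.17 and 0.32 and were not called. Kcnh1 and Kcnab2 kept the call in all 18 alternatives, Kcna5 lost it in 12 and Kcnd2 in 11 (adjusted p up to 0.147 and 0.121). Other genes called rhythmic in the pineal gland alone were not shown to differ from the retina.

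When the late dark libraries (ZT19, ZT23) were set against the light ones (ZT1, ZT7, ZT13), Kcne2 was the only potassium channel gene called in the pineal gland. That is 1.82%, where 7.28% of all genes were called, 3.04% higher and 4.23% lower. The median of all genes in this comparison was -0.12 as deposited and -0.013 after median ratio scaling (-0.11 and 0.016 in the retina). Kcne2 had 25.8 and 35.7 FPKM in late dark, against 54.9, 58.3 and 64.4 FPKM in light, with no overlap. The difference was -0.94 (SE 0.19, adjusted p = 0.0174). It was not called without ZT19 (adjusted p = 0.154), ZT7 (0.0609) or ZT13 (0.0542). At ZT15, 1 h into the dark, the gene was at 66.8 FPKM, and with ZT15 counted as dark the difference was -0.57 (adjusted p = 0.458). Its rhythm test gave a size of 1.12 and missed the threshold (adjusted p = 0.0644). Kcnh6 also had lower values in late dark (99.5 and 93.6 FPKM) than in light (110, 133 and 112 FPKM) but was not called (difference -0.28, adjusted p = 0.237). Without the pineal ZT1 library 8 genes were called, 3 higher and 5 lower, and this 14.8% was near the share of all genes, 15.4%.

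In the retina 0 of the 55 genes were called in late dark against light, where 0.00960% of all genes were. By an unadjusted p under 0.05, 5 passed, which is 9.09%, against 11.9% of all genes. Kcnv2 had a difference of 0.91 (adjusted p = 0.369), with ZT1, when it was high, counted as light. Without the retina ZT1 library Kcnv2 was called (1.36, adjusted p = 0.0348). No late dark effect differed between the tissues (0 of 55 genes, where 0.710% of all genes were called, and 2 at an unadjusted p under 0.05, which is 3.64%, against 11.1% of all genes).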

How the data were processed

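Polyadenylated RNA of 14 libraries was copied with random primers and read as paired 101-base ends, per the labels' protocols. The authors deposited 1 FPKM value per RefSeq transcript and library. TopHat 1.3.1, Cufflinks 1.2.0 and rn4 are named in the submitters' processing notes, without their roles, and strandedness is not given in the sources used here. Genes that overlap an antisense partner are therefore uncertain. FPKM was summed per gene ID over 16932 transcripts. FPKM is relative to each library's own fragments, and read depth is unknown. Table starts count from 0, and 1 was added.

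Tests used log2(FPKM + 1), which understates the change of low genes, restricted to genes that reached 1 FPKM in 2 or more of the fitted libraries, in limma 3.58.1 (R 4.3.3, empirical Bayes with trend). P-values were two-sided and Benjamini-Hochberg adjusted over all genes tested, with a threshold of 0.05. The tissue fit held 14 libraries (11 residual degrees of freedom). The rhythm fit and the late dark fit, which gave ZT15 its own mean, held the 12 pineal and retina libraries (6 residual degrees of freedom). The tissue, rhythm and late dark fits were tested on simulated data, and the other steps were not. Alternatives were a pseudocount of 0.1 FPKM, no filter, quantile normalization, median ratio scaling, the highest transcript alone, each tissue fitted alone, a replicate block on ZT, ZT15 grouped with dark, leaving out each library and leaving out the 2 retina libraries highest in lens markers. Full values are given for the 10 widest differences each way between pineal gland and retina, the 5 widest each way against mixed tissue, the called genes in the time tests, the most abundant genes, and genes with several transcripts. Kcnv2 was named from an earlier account. Some genes counted in these comparisons are not reported here. The genes, lists and tests were chosen with earlier results of these data known. The ± values are SD over the libraries of a group.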

Additional observations from a re-analysis of the deposited data

Results flagged for a closer look

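In 2 of the 47 groups of 6 libraries tested for an outlying library, 1 library stood apart from the other 5. Chance flags about 1 in 20 groups. Kcnmb2 in the pineal gland had 5.28 FPKM at ZT23, against 2.82 FPKM in the next. Kcnv2 in the pineal gland had 2.43 FPKM at ZT19, against 0.997 FPKM in the next.

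The rhythms of 4 genes differed between the pineal gland and the retina by the interaction test of limma, at 1.85 on the log2 scale for Kcna5 (adjusted p = 0.0493), 1.63 for Kcnab2 (adjusted p = 0.00413), 1.31 for Kcnd2 (adjusted p = 0.0308) and 1.73 for Kcnh1 (adjusted p = 0.00628).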

How the results depend on the processing

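Numbers of potassium channel genes called moved by over 1.5 times in the time tests. Rhythmic in the retina were 1 gene with a pseudocount of 0.1 FPKM or no filter, 4 with each tissue fitted alone, 0 without the 2 retina libraries highest in lens markers, and 0 to 3 with 1 library left out. Rhythmic in the pineal gland were 4 with each tissue fitted alone (of 30 tested) and 7 to 16 with 1 library left out, 7 without ZT23. Different between the tissues were 2 with a pseudocount of 0.1 FPKM or no filter and 2 to 6 with 1 library left out. Called in late dark in the pineal gland were 2 with a pseudocount of 0.1 FPKM, no filter or median ratio scaling, 0 with each tissue fitted alone or ZT15 counted as dark, and 0 to 8 with 1 library left out, 8 without ZT1. With 1 library left out the late dark calls in the retina and the late dark differences were each 0 to 1. Retina and mixed tissue gave 36 to 58 calls with 1 library left out, 36 of 56 genes tested without mixed ZT7. With a mixed library left out, the 15 genes that reached 1 FPKM in the mixed libraries alone were not tested. Beyond this, the cause of these moves was not tested. The difference of Kcnd3, pineal and retina, not called, was -0.026 to 0.16 with 1 library left out, lowest without pineal ZT19. Same-numbered pineal and retina libraries share a time of day and no animals that the labels name. With a replicate block on ZT, 50 of 55 genes were called between pineal gland and retina. Calls between pineal gland and retina were 50 to 65, and between pineal gland and mixed tissue 48 to 75, over the alternatives run.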
